A study of Mus musculus with 6 samples.

Results

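The genes described here encode chaperones and thiol isomerases of the endoplasmic reticulum (ER), the compartment in which secreted and membrane proteins fold. They are Hspa5, Hsp90b1, Calr, Canx, P4hb, Pdia3, Pdia4, Pdia6, Creld2 and Manf, chosen by symbol for their known function, 10 of the 24346 genes in the deposited tables. Sequencing covered platelets of wild-type mice (WT, 3 libraries) and of mice homozygous for a β3(R734C) knock-in (labelled Homo, 3 libraries), in which 1 amino acid in the cytoplasmic tail of integrin β3 is replaced. Integrin β3 pairs with αIIb as the platelet fibrinogen receptor, and the series title links the change to large platelets in low number. The labels give blood thrombocytes as the source of all 6 libraries and name no treatment. Strain, age and sex, and whether a library is 1 animal or a pool, are not given in the sources used here. The p-values below therefore measure the spread between these libraries, which may be technical.

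The ER binds new chains to Hsp70-type and Hsp90-type chaperones, holds glycoproteins in a cycle with the lectins calnexin and calreticulin, and sets their disulfide bonds with thiol isomerases of the protein disulfide isomerase (PDI) family. Integrins and the glycoprotein Ib complex are clients of this machinery in the megakaryocyte, the cell that makes platelets. Several PDI family members also reach the platelet surface on activation, where they act on disulfide bonds of αIIbβ3 and support thrombus growth. Platelets have no nucleus, so their mRNA is largely what the megakaryocyte passed on.

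Many of these genes share a control element that responds to unfolded proteins, the ER stress response element (ERSE). Its copies are shown here for the members whose promoters held it. The element is CCAAT, 9 bases of any kind and CCACG, and is bound in known cases by NF-Y at the first part and by the cleaved factor ATF6 at the second. RefSeq promoters of GRCm38.p6, from 250 bases before to 50 bases after each start, were found for 9 of the 10 genes. Manf was not among them. On either strand, 6 of these 9 promoters held the ERSE, against 39 of all 32851 promoters (0.119%). P4hb, Pdia3 and Pdia4 held none, and Hsp90b1 held 2 copies. Capitals mark the element, with 15 bases on each side, and each copy is printed 5′ to 3′ so that CCAAT comes first:
Hspa5: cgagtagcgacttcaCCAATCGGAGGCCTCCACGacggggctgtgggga
Hsp90b1, far copy: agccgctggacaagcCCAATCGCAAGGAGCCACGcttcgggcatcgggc
Hsp90b1, near copy: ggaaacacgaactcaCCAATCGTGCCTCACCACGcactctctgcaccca
Calr: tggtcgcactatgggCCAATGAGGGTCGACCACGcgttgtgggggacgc
Canx: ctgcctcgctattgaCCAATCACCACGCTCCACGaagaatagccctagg
Pdia6: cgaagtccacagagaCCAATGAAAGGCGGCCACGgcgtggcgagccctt
Creld2: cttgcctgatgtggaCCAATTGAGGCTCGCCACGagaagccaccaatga

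These windows lie at chr2:34772010-34772058 (plus strand, Hspa5), chr10:86705623-86705671 (minus strand) and chr10:86705518-86705566 (plus strand, Hsp90b1). The others lie at chr8:84847060-84847108 (plus strand, Calr), chr11:50325785-50325833 (minus strand, Canx), chr12:17266476-17266524 (plus strand, Pdia6) and chr15:88819505-88819553 (minus strand, Creld2). The element of Hspa5 spans bases 47 to 65 before the RefSeq start, and the far copy of Hsp90b1 spans bases 194 to 212. In GENCODE's annotation the span of Hspa5 begins at chr2:34771970, before this window, so its element lies inside the gene there. CCAAT pointed the same way as the gene in Hspa5, Canx, Pdia6 and the far copy of Hsp90b1, and the opposite way in Calr, Creld2 and the near copy. The related ERSE-II (ATTGG, 1 base and CCACG) and the core TGACGTGG, whose reverse strand also holds CCACG, were found in none of the 9 promoters, against 0.0365% and 0.676% of all promoters. CCACG alone, which is also part of the ERSE, occurred in 8 of the 9, all but Pdia3, and in 32.8% of all promoters. A match is a description of the letters in the window, and binding was not measured here.

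All 6 libraries carried the 12 platelet and megakaryocyte markers on the list used, with summed levels of 54332 to 56565 FPKM in WT and 50116 to 55597 in knock-in libraries. FPKM is fragments relative to transcript length and library size. Haemoglobin mRNA took 5.71% to 12.8% of the total FPKM in WT and 3.20% to 20.4% in knock-in libraries, and library 1 was the richest of each group. Of 10 neutrophil, 7 B cell and 6 plasma cell markers in the tables, 0 reached a mean of 1 FPKM. Neutrophil markers summed to 0.252 to 2.32 FPKM in WT and 0.757 to 2.08 in knock-in libraries, B cell markers to 0 to 0.445 and 0.456 to 0.837, and markers of plasma cells, which are rich in ER chaperones, to 0.192 to 0.476 and 0.492 to 1.59. Camp, Ms4a1, Cd22, Pax5, Tnfrsf17 and Irf4 were listed at 0 in all libraries. Monocyte and macrophage markers summed to 7035 to 8243 FPKM in WT and 7206 to 9129 in knock-in libraries, nearly all of it Lyz2, with Cx3cr1 listed at 0 in all. T and NK cell markers summed to 2.67 to 4.42 and 5.06 to 8.83 FPKM, mostly Nkg7, with Cd3d, Cd3e and Cd4 listed at 0. Endothelial markers summed to 256 to 275 and 207 to 209 FPKM, mostly Pecam1, which platelets also carry. Where such sums differed between the groups, their part in the results below was not tested. Erythroid markers in all summed to 38614 to 94887 and 25352 to 181822 FPKM. Total FPKM was 641278 to 708432 in WT and 758381 to 856863 in knock-in libraries, and read counts were not analysed here.

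By level, the ER folding genes ranged from low to above the middle of the tested genes. P4hb, Calr, Pdia3, Hspa5 and Canx stood at the 60.8 to 70.2 percentile, and the others at the 11.1 to 46.7 percentile. All 10 had a mean of at least 1 FPKM over the 6 libraries and were tested, among 4859 tested genes. Summed over the 10 genes, WT libraries held 84.2, 94.3 and 88.6 FPKM and knock-in libraries 99.0, 119 and 106. As a share of total FPKM these sums were 0.0119% to 0.0147% in WT and 0.0116% to 0.0157% in the knock-in, so the sums did not overlap between the groups and the shares did. In bulk RNA, a different amount of RNA per platelet and a different mix of platelets cannot be told apart.

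By mean FPKM, which is per length and so comparable between genes, the WT order was P4hb (16.3), Pdia3 (15.2), Calr (15.1), Hspa5 (14.6), Canx (9.96), Creld2 (6.17), Hsp90b1 (5.93), Pdia4 (3.21), Pdia6 (1.28) and Manf (1.26). The first 4 overlapped with one another in turn, and Hspa5, Canx and Hsp90b1 were each separate in range from the next lower gene. Creld2 overlapped Hsp90b1, while Pdia4, Pdia6 and Manf overlapped in turn. In the knock-in the order was P4hb (22.4), Calr (20.8), Pdia3 (18.5), Hspa5 (15.8), Canx (12.6), Hsp90b1 (5.42), Pdia4 (5.36), Pdia6 (2.71), Creld2 (2.60) and Manf (1.64). There Calr, Pdia3, Hspa5, Canx and Pdia4 were separate from the next lower gene, and P4hb, Hsp90b1, Pdia6 and Creld2 overlapped it. Creld2 went from the sixth to the ninth place. Over all 6 libraries P4hb stood at the 70.2 percentile of tested genes by level and Manf at the 11.1 percentile.

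**Figure D1:**
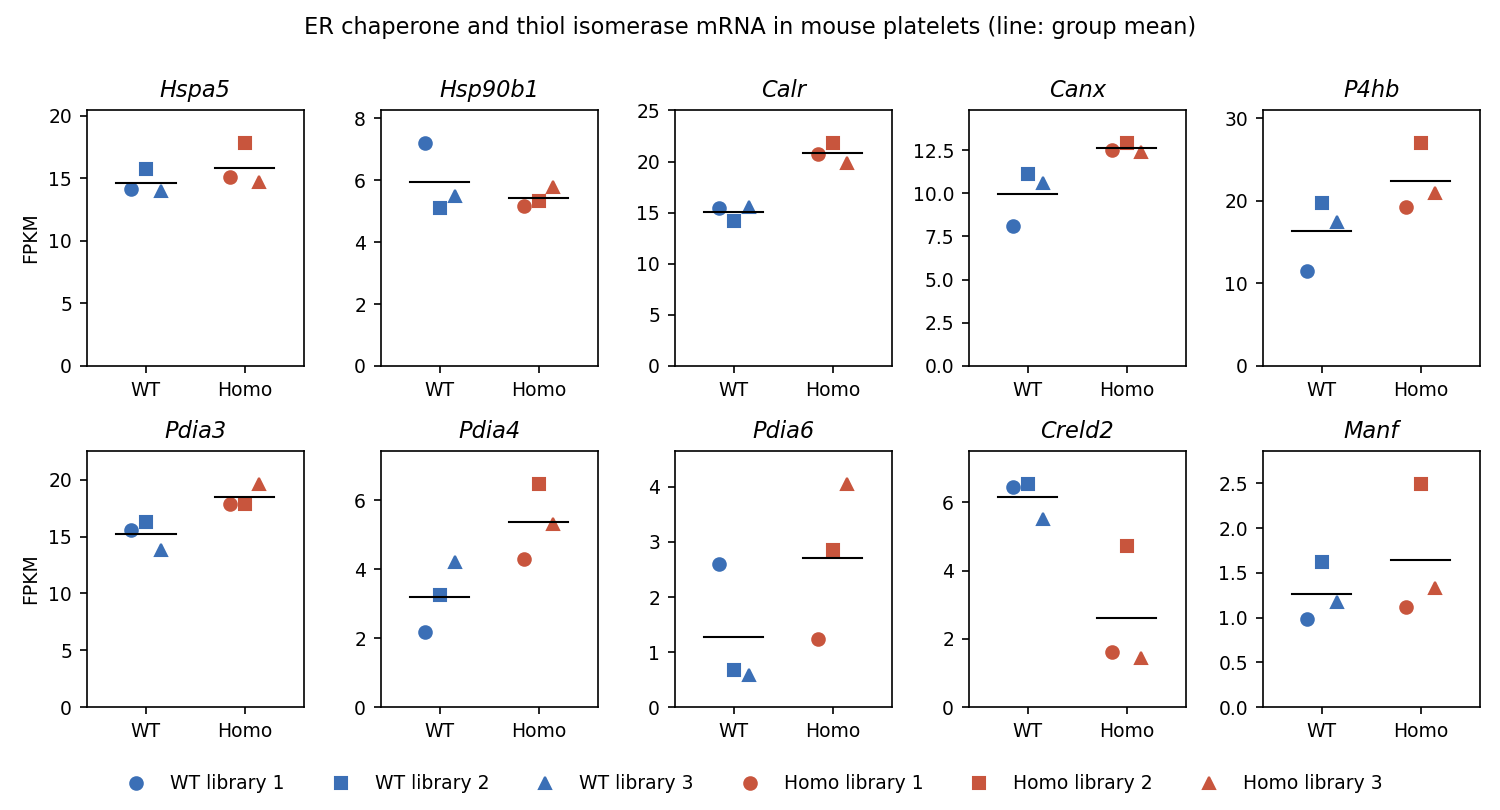
FPKM of each of the 10 genes (vertical axis, its own scale from 0 in each panel) in the 3 WT and 3 knock-in (Homo) libraries, one symbol per library, with a line at the group mean. Calr, Canx, Pdia3 and Pdia4 are higher in every knock-in library than in any WT library, and Creld2 is lower in every one.

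The comparison of genotypes asked whether platelets with the β3 change carry other amounts of these mRNAs. No gene of the 10 passed the test, at an adjusted p under 0.05 in limma, where 406 of 4859 tested genes did (8.36%). Of those 406 genes, 212 were higher in the knock-in and 194 lower. At an unadjusted p under 0.05 there were 3 of the 10 genes, Calr, Pdia4 and Creld2, where 25.4% of tested genes were under that limit. Values of the groups did not overlap for 5 genes. Calr, Canx, Pdia3 and Pdia4 were higher in the knock-in, where 14.9% of tested genes were higher without overlap, and Creld2 was lower, where 15.8% were. The log2 fold change was above 0 in 8 of the 10 genes and in 2356 of all 4859 tested genes. Its median was 0.29 in the 10 genes, against -0.01 over all tested genes. Only Creld2 differed at least 2-fold by the fitted value, a limit that 3.29% of tested genes reached. Log2 fold changes are knock-in minus WT on log2(FPKM + 1), which understates the change of low genes.

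**Figure D2:**
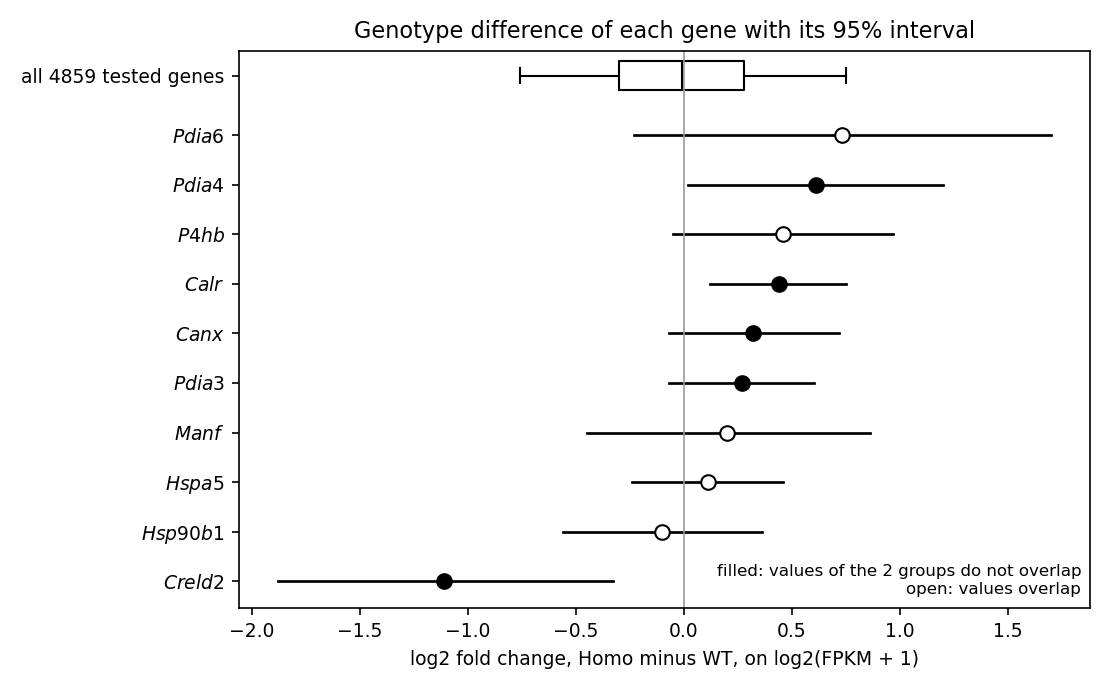
Log2 fold change of each of the 10 genes (points, filled where the groups' values do not overlap) with its 95% interval (lines), and a box of all 4859 tested genes with whiskers at their 5th and 95th percentiles. Intervals of Calr, Pdia4 and Creld2 leave out 0, with Calr from 0.12 to 0.75, and none of the 10 genes passed after adjustment over all tested genes.

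Hspa5 encodes BiP, the Hsp70-type chaperone of the ER lumen and the usual readout of ER stress. In GENCODE's annotation of GRCm38 it spans chr2:34771970-34777547, plus strand. WT libraries measured 14.1, 15.7 and 14.0 FPKM and knock-in libraries 15.1, 17.8 and 14.7. The groups overlapped, and the spread within each was small. The difference was 0.11 (SE 0.15, limma adjusted p = 0.709), with a 95% interval of -0.24 to 0.46. That interval leaves out a 2-fold difference in either direction on this scale.

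Hsp90b1 encodes GRP94, the Hsp90-type chaperone of the ER, which integrins and the glycoprotein Ib complex need to fold. Its locus is chr10:86690209-86705509, minus strand. WT libraries measured 7.20, 5.09 and 5.50 FPKM and knock-in libraries 5.16, 5.32 and 5.78. WT library 1 was the highest of the 6, and the other 5 lay close together. The difference was -0.10 (SE 0.20, limma adjusted p = 0.816; 95% interval -0.56 to 0.36), and without WT library 1 it was 0.03. Exons of Hsp90b1 share 415 bases with the pseudogene 1810014B01Rik on the opposite strand, and the library kits do not mark strand.

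Calr encodes calreticulin, the soluble lectin of the glycoprotein cycle and a calcium store of the ER lumen. The annotated gene covers chr8:84841850-84846934, minus strand. WT libraries measured 15.5, 14.2 and 15.6 FPKM and knock-in libraries 20.7, 21.8 and 19.9. Every knock-in library was above every WT library, and Calr had the smallest spread of the 10 genes, at the 1.87 percentile of tested genes by standard deviation on the log2 scale. Group means were 15.1 ± 0.768 and 20.8 ± 0.976 FPKM (SD, n = 3 each). The difference of 0.44 (SE 0.14, 95% interval 0.12 to 0.75) had an unadjusted p of 0.0123 and did not pass in limma after adjustment (adjusted p = 0.0882). It lay between 0.36 and 0.47 under all 19 alternative settings, with limma adjusted p of 0.0512 to 0.243.

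Canx encodes calnexin, the membrane-bound lectin of the same cycle. Its locus is chr11:50293961-50325673, minus strand. WT libraries measured 8.12, 11.1 and 10.6 FPKM and knock-in libraries 12.5, 12.9 and 12.4. WT library 1 was the lowest, and the 3 knock-in libraries lay above all WT libraries within a narrow range. The difference was 0.32 (SE 0.17, limma adjusted p = 0.290; 95% interval -0.07 to 0.72). It was 0.20 without WT library 1, a fall of over 1.5 times in a value that did not pass either way.

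P4hb encodes PDI itself, the first thiol isomerase found on the platelet surface and one that acts on αIIbβ3. The annotated gene covers chr11:120560298-120573253, minus strand. WT libraries measured 11.5, 19.8 and 17.5 FPKM and knock-in libraries 19.3, 27.0 and 21.0. The groups overlapped by 1 library on each side, WT library 2 and knock-in library 1. Means were 16.3 ± 4.29 and 22.4 ± 4.02 FPKM (SD, n = 3 each). The difference of 0.46 (SE 0.22, 95% interval -0.05 to 0.97) did not pass (limma adjusted p = 0.245). It was 0.24 without WT library 1.

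Pdia3 encodes ERp57, the isomerase that calnexin and calreticulin recruit to glycoproteins, also active at the platelet surface. Its locus is chr2:121413775-121438687, plus strand. WT libraries measured 15.6, 16.3 and 13.8 FPKM and knock-in libraries 17.9, 17.9 and 19.6. All knock-in values were above all WT values. The difference was 0.27 (SE 0.14, limma adjusted p = 0.294), with a 95% interval of -0.07 to 0.60.

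Pdia4 encodes ERp72, another isomerase released by activated platelets. The annotated gene covers chr6:47796141-47813430, minus strand. WT libraries measured 2.19, 3.24 and 4.20 FPKM and knock-in libraries 4.29, 6.47 and 5.32. The groups did not overlap, although the highest WT and the lowest knock-in library nearly met. The difference was 0.61 (SE 0.26, unadjusted p = 0.0450, limma adjusted p = 0.184), with a 95% interval of 0.02 to 1.20. Means were 3.21 ± 1.01 and 5.36 ± 1.09 FPKM (SD, n = 3 each).

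Pdia6 encodes ERp5, an isomerase that associates with integrin β3 on activated platelets. Its locus is chr12:17266545-17284770, plus strand. WT libraries measured 2.60, 0.667 and 0.583 FPKM and knock-in libraries 1.23, 2.86 and 4.05. The groups overlapped in library 1 of each, where the WT library was the higher. Pdia6 had the widest spread of the 10 genes, at the 92.2 percentile of tested genes. The mean ratio of 2.12 rested on means of 1.28 ± 1.14 and 2.71 ± 1.42 FPKM (SD, n = 3 each), and the difference of 0.73 (SE 0.42, 95% interval -0.23 to 1.70) did not pass (limma adjusted p = 0.325). Without both libraries numbered 1, which were also the richest in haemoglobin mRNA, it was 1.44 and passed (limma adjusted p = 0.0280). It was 1.11 without WT library 1 alone, 1.06 without knock-in library 1 alone and 0.47 with knock-in library 3 left out, none of which passed. At such low levels the value rests on few fragments, and the part of haemoglobin-rich cells in it was not tested.

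Creld2 encodes a small ER protein with EGF-like repeats that is induced by ER stress. The annotated gene covers chr15:88819646-88826683, plus strand, with 1 transcript. WT libraries measured 6.44, 6.53 and 5.52 FPKM and knock-in libraries 1.62, 4.73 and 1.44. The WT libraries lay close together, and knock-in library 2 lay near them, well above the other 2 knock-in libraries. Means were 6.17 ± 0.560 and 2.60 ± 1.85 FPKM (SD, n = 3 each), a ratio of 0.422. The difference of -1.11 (SE 0.34, 95% interval -1.88 to -0.33) had an unadjusted p of 0.0107 and did not pass in limma after adjustment (adjusted p = 0.0822). Without knock-in library 2 it was -1.50 and passed (limma adjusted p = 0.0441). Over its 18 alternatives it lay between -1.50 and -0.58, the latter with a pseudocount of 5, and the limma adjusted p between 0.0441 and 0.241.

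Manf encodes a secreted ER protein that binds BiP and is also induced by ER stress. Its locus is chr9:106838312-106891979, minus strand. WT libraries measured 0.986, 1.62 and 1.17 FPKM and knock-in libraries 1.12, 2.49 and 1.33. The groups overlapped, with library 2 the highest of each. The difference was 0.20 (SE 0.29, limma adjusted p = 0.714; 95% interval -0.45 to 0.86) and was -0.02 without knock-in library 2. Exons of Manf share 146 bases with Dcaf1 and 166 with 4930524O07Rik on the opposite strand, so its low level is less certain.

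Some of the variation followed single libraries. Knock-in library 2 was the highest of its group in 7 of the 10 genes, Hspa5, Calr, Canx, P4hb, Pdia4, Creld2 and Manf. Knock-in library 1, with 20.4% of its FPKM in haemoglobin, was the highest in 0 and the lowest in 5. WT library 1, with 12.8%, was the lowest of its group in Canx, P4hb, Pdia4 and Manf and the highest in Hsp90b1 and Pdia6. The same was not counted over all tested genes, so this order may not be particular to the 10 genes. The part of haemoglobin mRNA in these differences was not tested. Without both libraries the differences were 0.46 in Calr, 0.20 in Canx, 0.34 in P4hb, 0.30 in Pdia3, 0.55 in Pdia4 and -0.91 in Creld2, none of which passed.

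**Figure D3:**
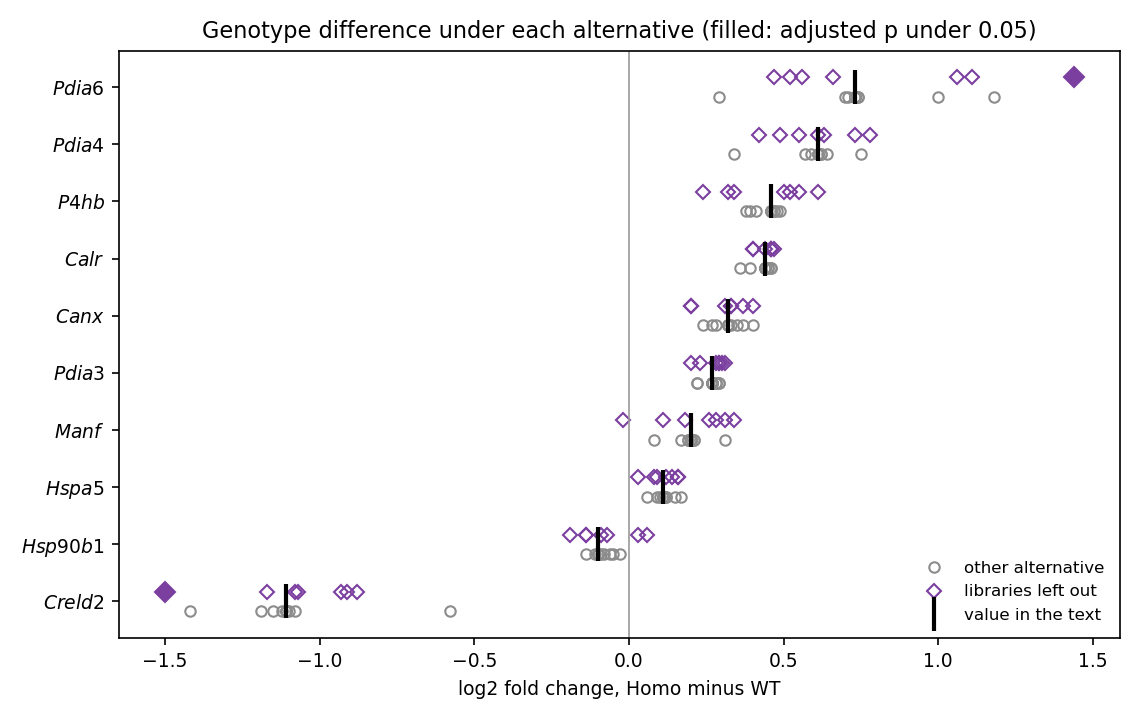
Log2 fold change of each gene in the text (black bar) and under each alternative, with diamonds for fits that leave out libraries and circles for other settings, filled where the adjusted p was under 0.05. The filled points are Pdia6 at 1.44 without both libraries numbered 1, and Creld2 at -1.50 without knock-in library 2.

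The 6 genes with the ERSE did not share a direction. Their log2 fold changes were 0.11 in Hspa5, -0.10 in Hsp90b1, 0.44 in Calr, 0.32 in Canx, 0.73 in Pdia6 and -1.11 in Creld2. Of the 37 gene symbols with an ERSE in a promoter, 8 were tested, the other two being Dnajc3 and Alg12. Dnajc3, for a cochaperone of BiP, measured 5.41 ± 0.752 and 6.81 ± 1.08 FPKM (SD, n = 3 each; limma adjusted p = 0.444). Alg12, for a mannosyltransferase of glycan assembly, measured 5.02 ± 0.638 and 4.21 ± 0.133 FPKM (SD, n = 3 each; limma adjusted p = 0.589). None of the 8 passed, and their median was 0.20. Of the 8, 5 were above 0, where 2356 of all 4859 tested genes were, but 6 of the 8 are the genes already described.

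Other thiol isomerases and oxidases mostly did not pass either. Of 10 tested genes on that list, 1 fell and 0 rose, with a median log2 fold change of 0.02 against -0.01 over all tested genes. Erp29, an ER protein with the isomerase fold, fell from 15.9, 22.3 and 21.9 FPKM in WT to 9.74, 5.68 and 9.57 in knock-in libraries (log2 fold change -1.19, SE 0.24, limma adjusted p = 0.0211). All its knock-in values were below all WT values. Tmx1, a transmembrane isomerase of the platelet surface that restrains aggregation, is named here after its values were seen: it measured 21.4, 27.5 and 33.3 FPKM in WT and 44.6, 40.5 and 44.8 in the knock-in, just short of the limit (0.66, limma adjusted p = 0.0502). Qsox1, a sulfhydryl oxidase and the most abundant of the list, measured 115 ± 16.3 and 105 ± 1.34 FPKM (SD, n = 3 each; limma adjusted p = 0.639).

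The list of genes that bring chains into the ER, the longest of the ER lists, held the most that rose. Of 22 tested genes of the translocon, signal peptidase and oligosaccharyltransferase, 4 rose and 0 fell, with a median of 0.28. Over all 4859 tested genes, 212 were called higher and 194 lower. Ost4, a small subunit of the oligosaccharyltransferase and the most abundant of the list, rose from 904, 741 and 693 to 1298, 1505 and 1565 FPKM (log2 fold change 0.91, SE 0.12, limma adjusted p = 0.00846). Dad1, another subunit, rose from 63.5 ± 11.7 to 105 ± 13.3 FPKM, and Sec61b, of the translocon channel, from 15.2 ± 1.48 to 25.0 ± 1.79 (SD, n = 3 each). Ssr3, of the translocon-associated complex, was the other that rose, from 47.9 ± 4.14 to 76.4 ± 6.02 FPKM (SD, n = 3 each), and is named after its values were seen. Knock-in values of these 4 genes lay above all WT values. Those of Stt3a, an oligosaccharyltransferase subunit also named after its values were seen, lay below all WT values. It measured 6.50 ± 0.491 and 3.43 ± 0.569 FPKM (SD, n = 3 each) and did not pass (-0.76, limma adjusted p = 0.0554). With sample weights, or rescaled on genes other than erythroid and the most abundant, 4 genes of the list rose and 1 fell. Across 4828 tested genes, which are not independent replicates, longer transcripts had lower log2 fold changes (Spearman correlation -0.189), and after removal of that trend Sec61b, whose longest transcript has 723 bases, was at 0.41 and did not pass (limma adjusted p = 0.162).

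In the remaining ER lists few genes passed. Of 9 cochaperones of BiP and GRP94, 0 rose and 0 fell (limma), with a median of 0.05. Sdf2, the most abundant of them, measured 64.0 ± 1.03 and 60.3 ± 4.84 FPKM (SD, n = 3 each; limma adjusted p = 0.680). Of 7 genes of the calnexin cycle and glycan trimming, 1 rose and 0 fell, with a median of -0.02. It was Sep15, a selenoprotein that binds the glycoprotein sensor of that cycle, from 264, 271 and 293 to 386, 425 and 423 FPKM (log2 fold change 0.57, SE 0.09, limma adjusted p = 0.0105).

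Of 14 genes of ER-associated degradation, 1 rose and 0 fell, with a median of 0.01. Selk, a selenoprotein of that machinery, rose from 132 ± 7.42 to 186 ± 14.8 FPKM (SD, n = 3 each; limma adjusted p = 0.0241). Derl1, a retrotranslocation channel protein and the most abundant, measured 414 ± 5.75 and 422 ± 6.95 FPKM (SD, n = 3 each; limma adjusted p = 0.867). Of 9 retrieval receptors, prolyl isomerases and luminal calcium binders, 0 rose and 1 fell, with a median of 0.11. Ppib, for cyclophilin B, a prolyl isomerase that works with these chaperones, fell from 28.0, 26.0 and 30.9 to 14.5, 21.1 and 15.5 FPKM (log2 fold change -0.72, SE 0.17, limma adjusted p = 0.0409). That call was lost in each of the 6 fits that leave out 1 library (limma adjusted p of 0.0507 to 0.142) and after removal of the length trend (-0.67, limma adjusted p = 0.0674). Atp2a3, the SERCA3 calcium pump that fills the platelet store, measured 1101 ± 42.3 and 1070 ± 92.8 FPKM (SD, n = 3 each; limma adjusted p = 0.815).

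Of 12 tested sensors and factors of the unfolded protein response, 1 rose and 0 fell, with a median of 0.04. Atf4, a transcription factor translated under stress and the most abundant of the list, rose from 70.2, 58.9 and 66.6 to 91.1, 99.0 and 91.4 FPKM (log2 fold change 0.52, SE 0.11, limma adjusted p = 0.0275). Its knock-in values were above all WT values. Ddit3, Xbp1, Atf6 and Ppp1r15b, also of this response and named after their values were seen, did not pass. Knock-in values of Atf6 and Ppp1r15b lay below all WT values. Atf6 measured 4.64 ± 1.10 and 2.60 ± 0.898 FPKM (SD, n = 3 each, limma adjusted p = 0.174). Ppp1r15b measured 2.61 ± 0.310 and 1.32 ± 0.279 FPKM (SD, n = 3 each, limma adjusted p = 0.131). Ddit3, for the factor CHOP, measured 13.5 ± 3.51 and 21.8 ± 3.09 FPKM (SD, n = 3 each; limma adjusted p = 0.0919). Xbp1, for the factor made by regulated splicing, measured 3.72 ± 0.770 and 3.98 ± 0.315 FPKM (SD, n = 3 each; limma adjusted p = 0.851), and gene-level values do not show its splicing.

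**Figure D4:**
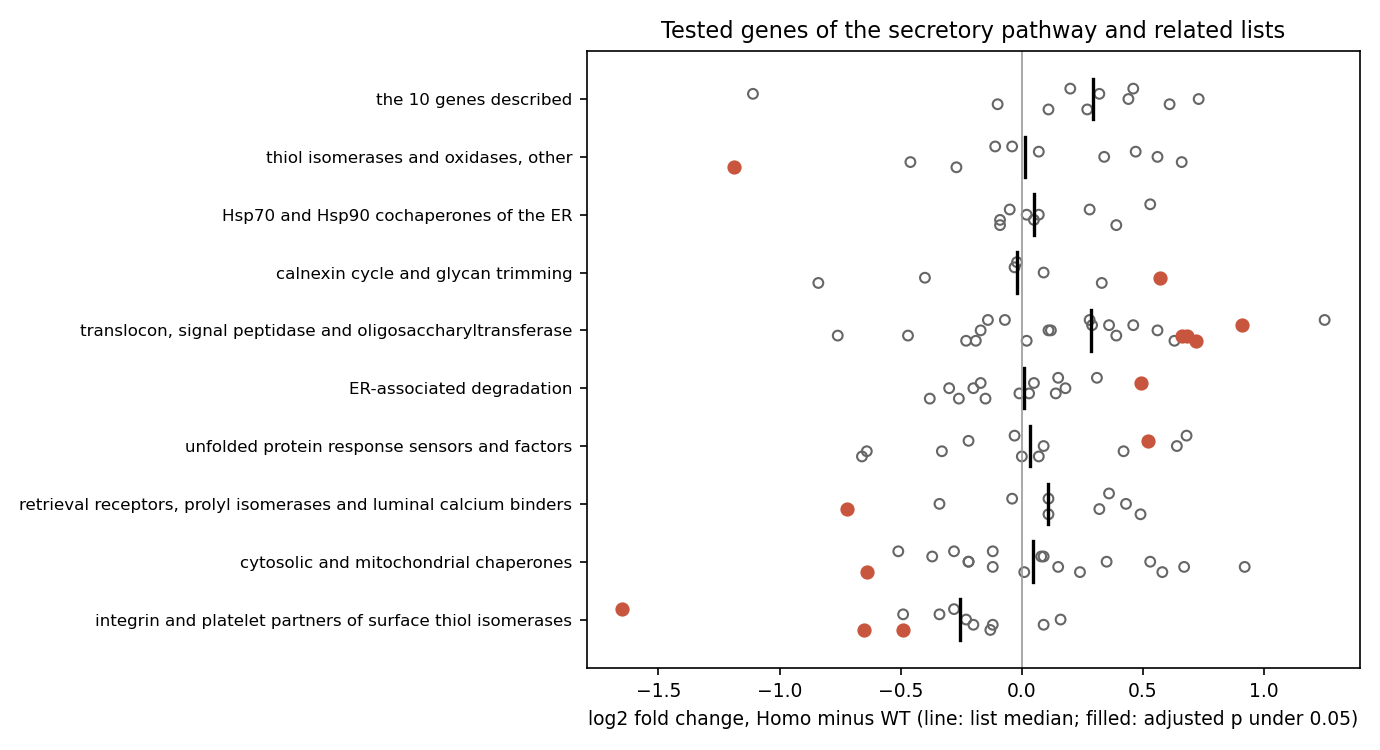
Log2 fold change of every tested gene (points) in each list, with a black line at the list's median and filled points for an adjusted p under 0.05. The 10 genes described have no filled point, and the translocon list has 4, all to the right of 0.

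Whether these 9 genes of the ER lists were called depended on which libraries were in the fit. Their log2 fold changes kept their sign under all 19 alternatives. Leaving out 1 library, Ost4 ranged from 0.83 to 1.02 and Erp29 from -1.34 to -0.97. Such a fit has 1 library fewer, so a lost call does not show that the library made the difference. In limma, 7 of the 9 were called without WT library 1, 0 without WT library 2, 2 without WT library 3, 8 without library 1 of the knock-in, 1 without its library 2 and 0 without its library 3. The adjusted p of the 9 genes was 0.0520 to 0.111 without WT library 2 and 0.0554 to 0.140 when knock-in library 3 was left out. Over the whole table, 41 and 0 genes were called without these libraries. With both libraries richest in haemoglobin left out, 8 of the 9 were called. With no filter on low values 2 were called, and without the variance trend 0 (limma adjusted p of 0.0623 to 0.102).

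Chaperones outside the ER and the surface partners of the isomerases give the setting. Of 18 cytosolic and mitochondrial chaperones, 0 rose and 1 fell, with a median of 0.04. Hspa8, the constitutive cytosolic Hsp70, fell from 37.1, 40.8 and 40.4 to 28.6, 25.5 and 21.4 FPKM (log2 fold change -0.64, SE 0.14, limma adjusted p = 0.0332). That call was lost without WT library 1, 2 or 3 (limma adjusted p of 0.0556, 0.123 and 0.113) and without knock-in library 2 or 3 (0.0974 and 0.111). Ahsa1, an activator of Hsp90 and the most abundant of that list, measured 102 ± 10.3 and 130 ± 11.7 FPKM (SD, n = 3 each; limma adjusted p = 0.109). Of 12 adhesion receptor and ligand genes that meet thiol isomerases at the surface, 0 rose and 3 fell, with a median of -0.26. The 3 were Itgb3, Gp1ba and Thbs1, where 194 of all 4859 tested genes were called lower. Itgb3, the edited gene, whose missense change a level cannot show and whose level checks no label, was at -0.49 (limma adjusted p = 0.0190) and Itga2b, its partner and the most abundant, at -0.12 (limma adjusted p = 0.412). Gp1ba was at -0.65 and Thbs1 at -1.65 (limma adjusted p = 0.0139 and 0.00759). Among the 6 limma fits that leave out 1 library, Itgb3 and Gp1ba were called in the fits without library 1 of either group and in no other, and Thbs1 in all but that without knock-in library 3. After removal of the length trend Itgb3 was at -0.39 and not called (limma adjusted p = 0.0578).

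The pattern of the 10 genes over the 6 libraries, taken as the mean of their standardized log2 values, was lowest in WT library 1 (-0.50) and WT library 3 (-0.49) and highest in knock-in library 2 (0.93). Among 2010 other tested genes with a mean of at least 10 FPKM, the 5 most like it by Pearson correlation over 6 libraries were Hist1h1c (0.985), Sumo3 (0.972), Zfp385c (0.971), Hist1h2bn (0.970) and Dpys (0.969). Hist1h1c, for a linker histone, measured 618, 676 and 601 FPKM in WT and 665, 837 and 754 in the knock-in. Hist1h2bn, a histone H2B gene with near-identical copies, was the only one of the 5 that passed, at 72.5 ± 2.09 and 131 ± 38.2 FPKM (SD, n = 3 each; limma adjusted p = 0.0413). It was called in only 1 of the 6 fits that leave out 1 library, that without knock-in library 1 (limma adjusted p = 0.00449), and at 0.46 after removal of the length trend it did not pass (limma adjusted p = 0.184). With so few libraries and so many candidates, high correlations are a description and carry no test.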

How the data were processed

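RNA was isolated with TRIzol and miRNeasy Micro columns, per the labels' protocols, then amplified as full-length cDNA (SMART-Seq HT) and made into Nextera XT libraries, which do not mark strand. The authors deposited 1 table of FPKM by gene symbol for each library. The submitters' processing notes name Cuffdiff 2.2.1, TopHat2 2.1.1, SAMtools 0.1.18, Bowtie2 2.2.8 and build mm10. Settings and annotation are not given in the sources used here. The deposited FPKM tables hold no counts. The commonest ratio of low values gave a depth relative to WT library 1 of 1.05 and 1.02 for WT libraries 2 and 3 and 0.882, 1.00 and 1.05 for the knock-in libraries. Absolute depth is unknown.

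Groups and replicate numbers came from the sample titles. The filter kept 4859 of the 12260 genes above 0 in any library, those whose 6 libraries averaged 1 FPKM or more, and these were tested together with limma 3.58.1 in R 4.3.3. The test used log2(FPKM + 1), group as the only term, a variance trend, two-sided moderated statistics and Benjamini-Hochberg adjustment over all tested genes, and genes with an adjusted p under 0.05 were called. The code was tested on simulated data. A single value compared between 3 and 3 libraries cannot reach an exact two-sided p below 0.1. Each library was counted as a sample. Pairs of libraries shared at most 1 identical value above 0, so no table is a copy of another. That cannot tell technical from biological replicates. Loci and transcript lengths came from GENCODE vM21 (GRCm38), and promoters from RefSeq.

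The members and the gene lists were chosen with earlier results of these data known, so no list is independent evidence. All 10 members are named. From each list, the most abundant tested gene is named and, of the called genes, the 3 with the largest change in each direction. The 5 genes most like the members were taken among tested genes with a mean of at least 10 FPKM. The 19 alternatives covered pseudocount, filter, scaling, variance model, sample weights, replicate block, transcript length and left-out libraries.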

Additional observations from a re-analysis of the deposited data

How the results depend on the processing

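The 10 genes gave 0 calls in either direction under all but 2 of the 19 alternatives. The exceptions were 1 higher call, Pdia6, without both libraries numbered 1, and 1 lower call, Creld2, without knock-in library 2, so that leaving out 1 library gave 0 higher and 0 to 1 lower calls. Over all tested genes, 406 calls became 107 with no filter, 678 without both libraries numbered 1 and 0 in limma without the variance trend (1197 at an unadjusted p under 0.05). They ranged from 0 to 589 when 1 library was left out, with 41 and 90 without WT library 2 and 3, and 79 and 0 (1002 at an unadjusted p under 0.05) without knock-in library 2 and 3. Differences near 0 changed sign: leaving out 1 library, Hsp90b1 ranged from -0.19 to 0.03 (without WT library 1), Manf from -0.02 (without knock-in library 2) to 0.34 and Atp2a3 from -0.11 to 0.02 (without knock-in library 1). Hsp90b1 was 0.06 without both libraries numbered 1, and Atp2a3 0.04 after removal of the length trend. Derl1 was -0.10 with quantile normalization and -0.02 when rescaled on genes other than erythroid and the most abundant. The cause was not tested. Pdia4, Pdia6, Creld2 and Manf could not be tested at a mean FPKM of at least 5. Replicate numbers were not treated as pairing. Deviations of same-numbered libraries correlated at 0.158, 0.023 and 0.141, in each case the highest value for that WT library. Knock-in library 2 correlated better with WT library 3 (0.067), so these values do not settle whether the numbers mark pairs. With a replicate block 306 genes and 0 of the 10 were called, and Sec61b, Selk, Atf4, Ppib and Hspa8 were not. FPKM without counts gives no counting error, and Pdia6 and Manf were the lowest of the 10 genes by level. The largest SE among the 10 genes were those of Pdia6 (0.42), Creld2 (0.34) and Manf (0.29).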

Other observations

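In the lists used here, 7 values stood at least 2-fold above both other libraries of their group and at or above 5 FPKM, and all were in library 1. Sec61g, a translocon subunit, measured 203 FPKM in knock-in library 1 against 46.3 and 45.1 in the other two. Ppp1r15a, a phosphatase subunit of the stress response, measured 31.4 against 9.30 and 4.49 FPKM. Asns, for asparagine synthetase, measured 16.5 against 4.09 and 3.77 FPKM, and Fkbp2, a prolyl isomerase gene, 6.63 against 0.923 and 0.729. Cct7, of the cytosolic chaperonin, measured 26.2 against 10.7 and 9.83 FPKM. Hsp90ab1, a cytosolic Hsp90 gene, stood apart in both groups, at 33.4 against 14.1 and 10.1 FPKM in the knock-in and 46.2 against 21.0 and 15.1 in WT. These genes were named after their values were seen. Haemoglobin mRNA took 20.4% of the FPKM of knock-in library 1 and 12.8% of that of WT library 1, and its part in these values was not tested. None of the 10 ER chaperone and thiol isomerase genes was among them. Pdia6 and Creld2 each had a value left out only by the limit of 5 FPKM. Pdia6 measured 2.60 FPKM in WT library 1 against 0.667 and 0.583 in the other WT libraries. Creld2 measured 4.73 FPKM in knock-in library 2, not library 1, against 1.62 and 1.44 in the other knock-in libraries.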
